A study of Sus scrofa with 12 samples.

Results

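The transcripts described here are those of the mitochondrial genome of the pig (Sus scrofa), taken as every row of the deposited gene table that lies on chromosome M. There were 37 such rows among 22861 in the table, of which 13 were protein genes, 2 were rRNA genes and 22 were tRNA genes by the biotype given. They were measured by RNA sequencing in cultures of interstitial cells from the aortic valve, which resemble fibroblasts and produce the leaflet matrix, as these cultures calcified. The 12 libraries formed 4 groups of 3 biological replicates, which were Stage 1 (day 5), Stage 2 (day 8), Stage 3+KPT and Stage 3+DMSO. All 4 groups, Stage 1 included, were grown in DMEM on glass, which the labels name as the stimulus for calcification. KPT or its DMSO control was given once Stage 3 had been reached, but the sources used here give neither the identity of KPT nor its dose or duration. Day 12 is the latest day of growth that the labels list, without naming it as that of Stage 3. Whether the replicates derive from different animals is not stated in the labels, so the p-values refer to the spread between these libraries only, which may be technical, and they give no age or sex of the animals.

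Mitochondrial DNA is a small circle present in many copies per cell. Both of its strands are transcribed by a dedicated RNA polymerase with the factors TFAM and TFB2M into long precursors, and excision of the tRNAs that lie between the other genes releases the mRNAs and rRNAs. The 13 proteins are core subunits of the respiratory chain and ATP synthase, the rRNAs and tRNAs translate them inside the organelle, and the remaining subunits come from nuclear genes. In mammals the mature mRNAs differ in level mainly through their processing and stability, since most come from the same precursor, and ND6 is the protein gene encoded on the opposite strand.

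The reads behind these values were recovered from the deposited RPKM (reads per kilobase of exon, scaled to the library total), with 13188023 to 24724019 as the library totals and 381418 to 897348 reads on chromosome M per library. The reads recovered over all genes, 23287593 to 43293744, were 1.75 to 1.81 times the library totals. Whether both mates of a pair or all positions of 1 fragment were counted is unknown, so intervals and read floors may be too narrow. Marker genes were checked against the labelled cell type. All 9 valve interstitial and fibroblast markers passed the expression filter. So did the endothelial genes PECAM1 and EMCN, the leukocyte genes CD14 and CD68, and the cardiomyocyte genes TNNI3 and ACTC1. The endothelial gene CLDN5 did not pass it, and CDH5 was not matched to a row. The endothelial genes VWF, KDR and TEK and the leukocyte genes PTPRC, CD163, LYZ and CSF1R were under 1 RPKM in every library. So were the cardiomyocyte genes MYH6, MYH7, TNNT2, MYL2 and NPPA. The valve markers summed to 23789 to 25203 RPKM at Stage 1, 33072 to 33877 at Stage 2, 18100 to 19171 in Stage 3+KPT and 30720 to 32673 in Stage 3+DMSO, with no overlap between groups. Of the 9, 7 rose (77.8%, against 16.3% of all genes tested) and 0 fell (against 24.4%) at Stage 2 relative to Stage 1. In Stage 3+DMSO relative to Stage 2, 2 rose (22.2%, against 33.0%) and 3 fell (33.3%, against 11.1%). Relative to Stage 1, 7 rose (77.8%, against 30.5%) and 1 fell (11.1%, against 17.3%) in Stage 3+DMSO. In Stage 3+KPT relative to Stage 3+DMSO, 2 rose (22.2%, against 30.5%) and 5 fell (55.6%, against 29.5%). The summed endothelial markers ranged from 11.1 to 11.8 RPKM at Stage 1, 11.4 to 14.7 at Stage 2, 5.91 to 9.15 in Stage 3+KPT and 8.09 to 11.9 in Stage 3+DMSO, and the summed leukocyte markers from 10.16 to 10.95 RPKM at Stage 1, 11.8 to 14.1 at Stage 2, 12.1 to 14.8 in Stage 3+KPT and 14.3 to 15.1 in Stage 3+DMSO, lowest at Stage 1. The summed cardiomyocyte markers, nearly all of them ACTC1, were 133 to 148 RPKM at Stage 1, 90.1 to 107 at Stage 2, 20.5 to 22.7 in Stage 3+KPT and 54.3 to 73.5 in Stage 3+DMSO, and the part of these marker levels in the results was not tested. The median log2 ratio of reads per base in the last over the first exon of a gene, a sign of RNA integrity, was 0.40 to 0.43 at Stage 1, 0.35 to 0.41 at Stage 2, 0.49 to 0.54 in Stage 3+KPT and 0.35 to 0.37 in Stage 3+DMSO, so that KPT libraries stood above the DMSO ones. Its part in the results was not tested.

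The mitochondrial genome supplied the largest share of reads at Stage 1 and the smallest in Stage 3+DMSO. Its rows held 2.27%, 2.50% and 2.34% of all reads over genes at Stage 1, 1.43%, 1.81% and 1.92% at Stage 2, 1.67%, 1.60% and 2.07% in Stage 3+KPT and 1.54%, 1.30% and 1.42% in Stage 3+DMSO. Every Stage 1 library lay above every other library, the KPT libraries lay above the DMSO libraries, and Stage 2 overlapped both Stage 3 groups. The share was 0.65 percentage points lower at Stage 2 than at Stage 1 and 0.95 points lower in Stage 3+DMSO than at Stage 1, with an exact two-sided permutation p of 0.1 for each (n = 3 each), the smallest that 3 against 3 libraries can give. It was 0.36 points higher in Stage 3+KPT than in Stage 3+DMSO (exact permutation p = 0.1, n = 3 each), or 0.212 points without Stage 3+KPT replicate 3, and 0.30 points lower in Stage 3+DMSO than at Stage 2 (exact permutation p = 0.2, n = 3 each). Adjusted over the 20 permutation tests made here, these p-values were 0.167 where the raw p was 0.1 and 0.235 where it was 0.2. The 95% Wilson interval of a single library reached at most 0.00605 points to either side, which covers counting error only and is far under the spread between replicates. A share of reads also falls where reads from nuclear genes rise. In bulk libraries, more nuclear RNA, fewer cells rich in mitochondrial RNA and less such RNA per cell cannot be told apart.

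**Figure D1:**
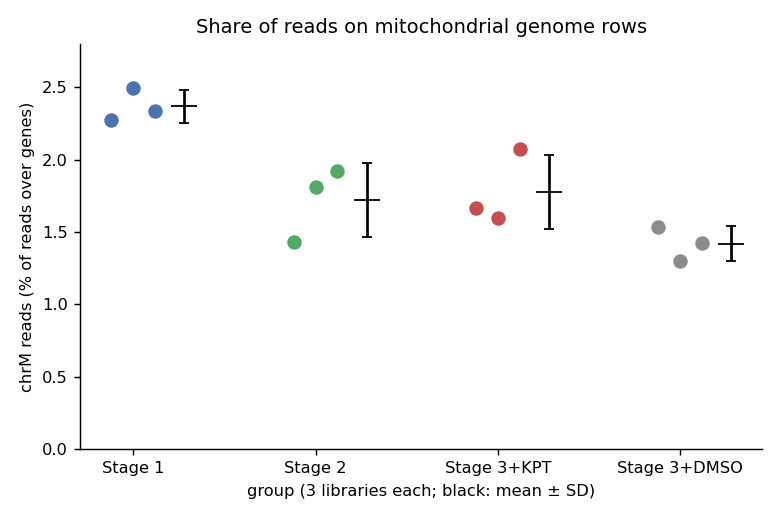
Percent of reads over genes that fell on mitochondrial rows (y axis) in each library of the 4 groups (x axis), with the group mean and SD in black. The Stage 1 libraries sit between 2.27% and 2.50%, above all others, and the KPT libraries (1.60% to 2.07%) sit above the DMSO libraries (1.30% to 1.54%).

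The protein genes of a library mostly stood on the same side of the other libraries of its group. Stage 2 replicate 1 had the lowest RPKM of its group for 13 of 13 protein genes, and it was also the shallowest Stage 2 library, with a total of 14712015. Stage 3+KPT replicate 3 had the highest RPKM of its group for 13 of 13 genes and was the deepest library of all, with 24724019. Stage 3+DMSO replicate 1 was the highest of its group for 13 genes but its shallowest library (19818092), and replicate 2 (20130892) was the lowest for 10. In Stage 3+KPT, replicate 2 (22185411) was the lowest for 9 genes, while replicate 1 was the shallowest (14001872). Stage 1 replicate 1 was the shallowest of its group (13188023) and the lowest for 10 genes. Stage 1 replicate 2 (19709042) was the highest for 12 but not the deepest. The part of depth was not tested.

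Among the 13 protein genes, levels spanned a wide range. COX1, the catalytic subunit of cytochrome c oxidase (complex IV), was the most abundant in every group, and its RPKM ranked between 1 and 10 among all genes of a library. COX3 came next (5169 to 7793 RPKM), then COX2 (1832 to 3333) and ATP6 (1316 to 2330.1), and ND4L had the lowest mean over all libraries (457 RPKM). As a share of reads on the protein genes, complex IV genes held 70.9% to 74.2% in the 12 libraries, the 7 ND genes of complex I 18.4% to 21.5%, ATP6 and ATP8 of ATP synthase (complex V) 3.18% to 6.87%, and CYTB of complex III 1.74% to 3.32%. Between 4 and 9 mitochondrial rows stood among the 100 rows of highest RPKM in a library. Nuclear copies of mitochondrial DNA could share reads with these genes, and the sources used here do not say how such reads were assigned.

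**Figure D2:**
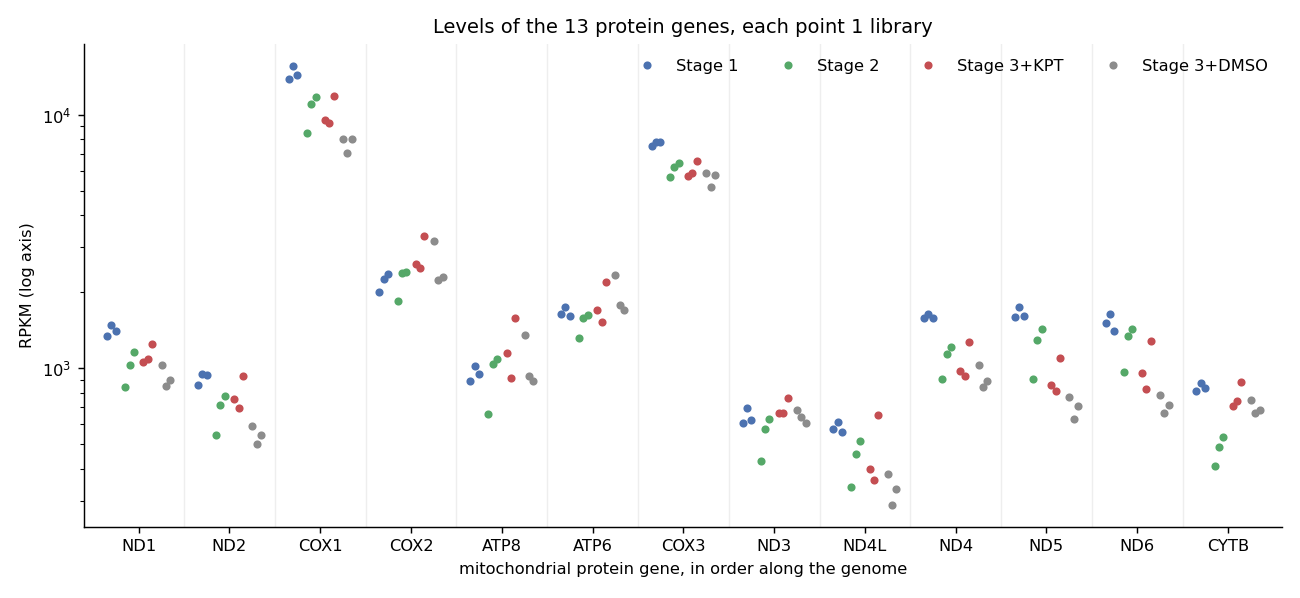
RPKM on a log axis (y) of the 13 mitochondrial protein genes in the order in which they lie on the genome (x), with 1 point per library and 1 colour per group. COX1 fell stepwise to 7024 to 8033 RPKM in Stage 3+DMSO, and CYTB is lowest at Stage 2. The COX2 points overlap between Stage 1 (1999.7 to 2348 RPKM), Stage 2 (1832 to 2395) and Stage 3+DMSO (2215 to 3159). Those of Stage 3+KPT (2483 to 3333) overlap Stage 3+DMSO but lie above both earlier stages, against which KPT was not tested.

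Of the 35 mitochondrial rows expressed highly enough to be tested, with an RPKM of at least 1 in at least 3 libraries, 13 fell and 0 rose at Stage 2 relative to Stage 1. The test was limma on log2(RPKM + 1) with an adjusted p under 0.05, and over all 13046 genes tested it called 40.7%, with 24.4% lower and 16.3% higher. At an unadjusted limma p under 0.05, 0 mitochondrial rows were higher. Values did not overlap between the stages for 13 of the 35 rows and for 52.5% of all genes. The fallen rows were 7 of 13 protein genes and 6 of 20 tRNA rows. Among these, the call of ENSSSCG00000018079 ended without Stage 2 replicate 1 (log2 fold change -0.56) and without the filter, and that of ENSSSCG00000018095 held in 19 of 25 alternatives. The median log2 fold change was -0.30 over the mitochondrial rows and -0.05 over all genes. Without the expression filter the number called was 7 in place of 13, of which 3 were protein genes.

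In complex I, which passes electrons from NADH into the chain, 4 of 7 ND genes fell at Stage 2. ND4 averaged 1087 ± 161 RPKM at Stage 2 and 1593 ± 36.8 at Stage 1 (SD, n = 3 each), a log2 fold change of -0.56 (SE 0.13, limma adjusted p = 0.00363). ND1 changed by -0.49 (SE 0.11), ND2 by -0.45 (SE 0.13) and ND5 by -0.47 (SE 0.15). The ND5 call held in 19 of 25 alternatives and ended without any 1 of the 3 Stage 1 libraries or without Stage 2 replicate 1, when the log2 fold change was -0.27. The ND2 call ended without Stage 1 replicate 2, when the log2 fold change was -0.42, and without Stage 2 replicate 1 (-0.30). ND3, ND4L and ND6 had log2 fold changes of -0.25, -0.43 and -0.30 and were not called.

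The single mitochondrial gene of complex III showed the largest change of the protein genes at this step. CYTB, cytochrome b, had 412, 487 and 535 RPKM in the 3 Stage 2 libraries, against 813, 873 and 837 at Stage 1. The groups were widely apart, and the level at Stage 2 was 0.566 of that at Stage 1. The log2 fold change was -0.82 (SE 0.10, limma adjusted p = 5.01e-05). The call held in 25 of 25 alternatives.

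In complex IV, COX1 and COX3 fell and COX2 was not called. COX1 had 8475, 10963 and 11719 RPKM at Stage 2, against 13864, 15557 and 14274 at Stage 1. All Stage 2 values lay below all Stage 1 values, a log2 fold change of -0.50 (SE 0.12, limma adjusted p = 0.00681). COX3, a membrane subunit beside the catalytic core, changed by -0.34 (SE 0.08, limma adjusted p = 0.00398). COX2, which carries the entry site for electrons from cytochrome c, had 1832, 2361 and 2395 RPKM at Stage 2, against 1999.7, 2251 and 2348 at Stage 1. These values overlapped, and the 95% confidence interval of the COX2 log2 fold change ran from -0.34 to 0.32. The ATP synthase membrane subunits ATP6 and ATP8 were not called either (log2 fold changes -0.15 and -0.07). They share 43 bases, so reads of one count in part for the other.

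**Figure D3:**
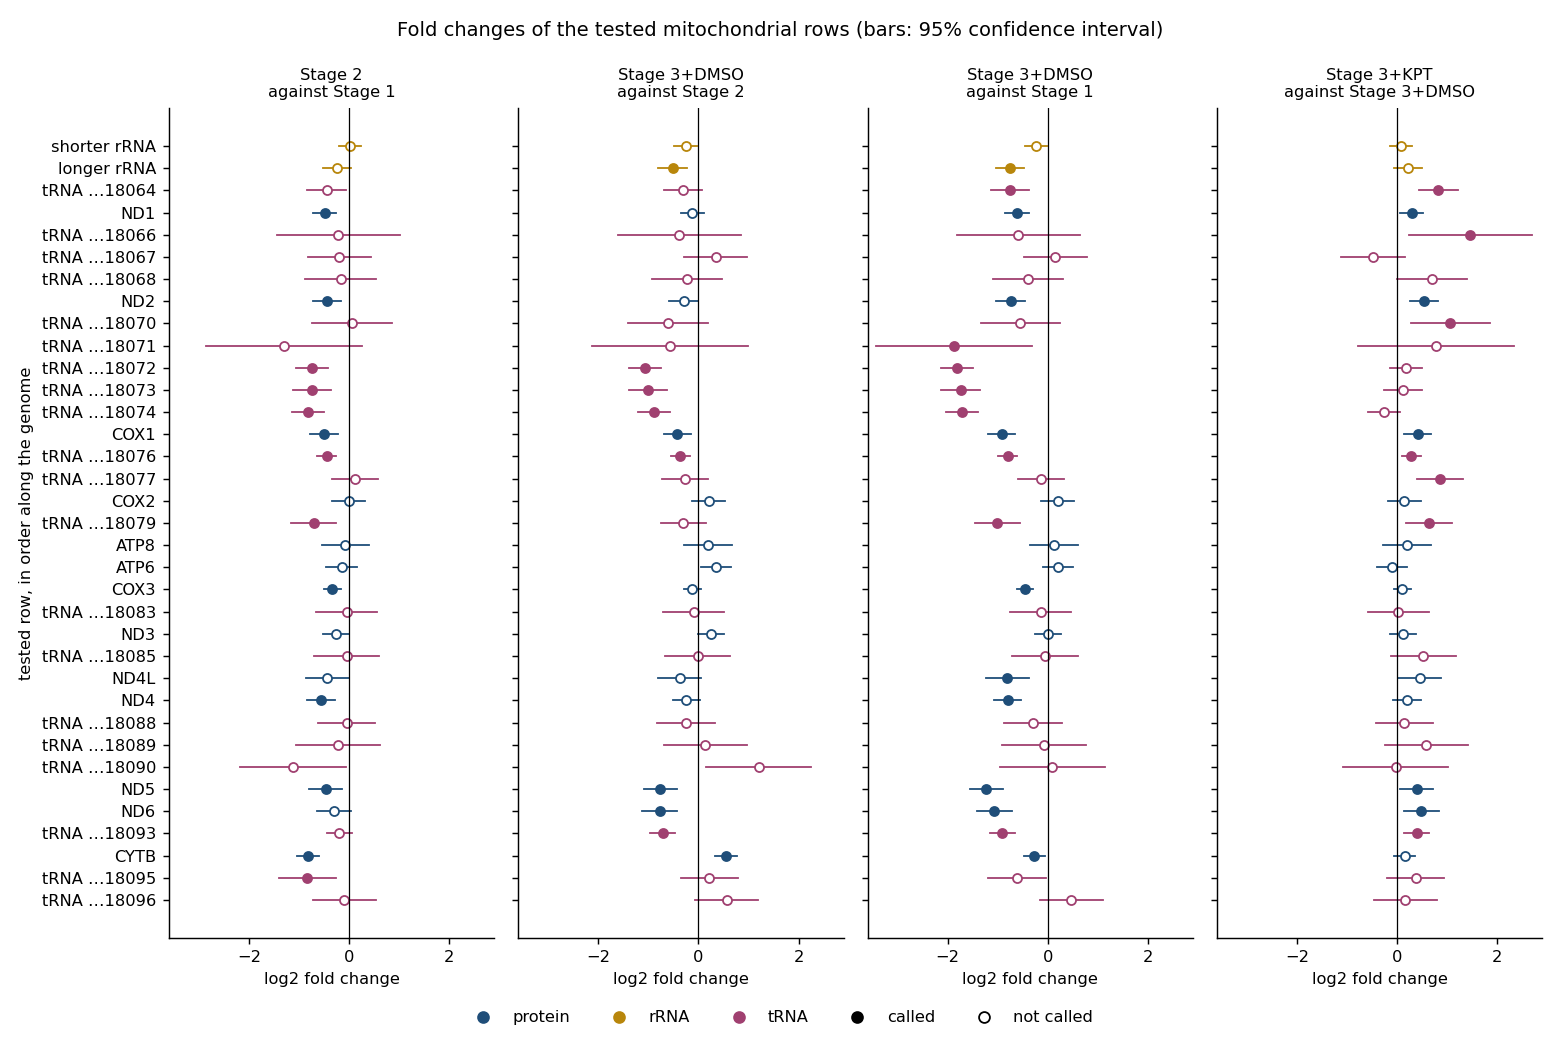
Log2 fold change on the log2(RPKM + 1) scale (x axis) with its 95% confidence interval for the 35 tested mitochondrial rows in genome order (y axis), in 4 comparisons, with called rows filled and tRNA rows marked by the end of their Ensembl ID. Between Stage 3+DMSO and Stage 1, 18 rows are filled on the lower side and 0 on the higher side, and COX2, ATP8, ATP6 and ND3 are open in all 4 panels.

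From Stage 2 to Stage 3+DMSO the genes parted. Of the 35 rows 1 rose and 9 fell, where 44.1% of all genes were called, 33.0% higher and 11.1% lower. Values did not overlap for 14 of the 35 rows and for 51.1% of all genes. The median log2 fold change was -0.26 over the mitochondrial rows and 0.15 over all genes. Rescaling every library by the median ratio over genes outside the mitochondrial genome brought the median of all genes to 0.01 and the mitochondrial calls to 1 higher and 16 lower. It also moved the calls over all genes from 4309 higher and 1446 lower to 2683 higher of 5169 called. The 17 calls included 8 lower protein genes, and leaving out Stage 2 replicate 1 gave 16 calls.

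CYTB was the row that rose. It had 746, 665 and 683 RPKM in Stage 3+DMSO, against 412, 487 and 535 at Stage 2, with no overlap. The log2 fold change was 0.55 (SE 0.10, limma adjusted p = 6.88e-04) and the call held in 25 of 25 alternatives. The Stage 3+DMSO level remained under that of Stage 1 by a log2 fold change of -0.27 (SE 0.10), a call that held in 16 of 25 alternatives and ended without any 1 of the 3 Stage 1 libraries, without Stage 2 replicate 2, without Stage 3+DMSO replicate 2 or 3, without the filter, without the expression trend or under quantile normalization, with log2 fold changes of -0.37 to -0.23 over all alternatives.

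ND5 and ND6 fell at this step, and COX1 fell a second time. ND5, a proton-pumping subunit of complex I, had 771, 627 and 709 RPKM in Stage 3+DMSO, against 902, 1292 and 1428 at Stage 2. The DMSO values lay below all others, with a log2 fold change of -0.76 (SE 0.15, limma adjusted p = 0.00157). ND6, the complex I subunit encoded on the minus strand beside ND5, had 779.6, 664 and 717 RPKM in Stage 3+DMSO, against 969, 1336 and 1430.2 at Stage 2. It changed by -0.77 (SE 0.16, limma adjusted p = 0.00186), and the calls of both genes held in 25 of 25 alternatives. COX1 had 8033, 7024 and 7992 RPKM in Stage 3+DMSO, against 8475, 10963 and 11719 at Stage 2, and changed by -0.42 (SE 0.12, limma adjusted p = 0.0151). That call held in 20 of 25 alternatives and ended without Stage 2 replicate 2 (log2 fold change -0.38), Stage 2 replicate 3 (-0.33) or Stage 3+DMSO replicate 2 (-0.36), without the expression filter, and under quantile normalization (-0.22). The remaining 9 protein genes were not called, and ATP6 had 2330.1, 1768 and 1696 RPKM in Stage 3+DMSO, against 1316, 1581 and 1621 at Stage 2. All ATP6 values of Stage 3+DMSO lay above those of Stage 2, but the log2 fold change of 0.35 did not pass the test (limma adjusted p = 0.0599).

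Over both steps, Stage 3+DMSO against Stage 1, 18 of 35 rows fell and 0 rose, where 47.7% of all genes were called, 17.3% lower and 30.5% higher. Values did not overlap for 19 of the 35 rows and for 59.0% of all genes. At an unadjusted limma p under 0.05, the number higher was 0. This comparison shares its libraries with the ones above. The median log2 fold change was -0.59 over the mitochondrial rows and 0.10 over all genes, and after median-ratio rescaling 20 mitochondrial rows were lower, while over all genes 3046 of 6137 called were higher, in place of 3975 of 6226. Of the protein genes, 9 of 13 fell, which were 6 of 7 ND genes, CYTB, COX1 and COX3. ND5 changed most, by -1.23 (SE 0.15, limma adjusted p = 3.45e-05), with 702 ± 72.1 RPKM in Stage 3+DMSO and 1642 ± 84.3 at Stage 1 (SD, n = 3 each). ND6 changed by -1.07 (SE 0.16), COX1 by -0.92 (SE 0.12), ND4L by -0.81 (SE 0.20), ND4 by -0.80 (SE 0.13), ND2 by -0.74 (SE 0.13), ND1 by -0.61 (SE 0.11) and COX3 by -0.46 (SE 0.08). Under quantile normalization COX3 was -0.19 and not called.

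The 4 protein genes without a call in any comparison were COX2, ATP8, ATP6 and ND3, which lie with COX3 in the stretch between COX1 and ND4L. COX2 averaged 2556 ± 524 RPKM in Stage 3+DMSO and 2199.6 ± 179.7 at Stage 1 (SD, n = 3 each), with a 95% confidence interval of the log2 fold change from -0.13 to 0.53. ATP6 had an interval from -0.10 to 0.51, ATP8 from -0.35 to 0.60 and ND3 from -0.26 to 0.26. These intervals exclude a fall as large as the COX1 value of -0.92, and the difference between the genes' changes was not itself tested. Under some alternatives there were calls among them, for ATP6 in 3 of 25 in Stage 3+DMSO against Stage 2, and the sign of the COX2 and ATP8 values depended on the scaling (-0.03 to 0.29 and -0.12 to 0.23 in Stage 3+DMSO against Stage 1).

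In Stage 3+KPT relative to Stage 3+DMSO, 12 of 35 mitochondrial rows rose and 0 fell, where 60.0% of all genes were called, 30.5% higher and 29.5% lower. Values did not overlap for 13 of the 35 rows and for 65.2% of all genes. The number lower at an unadjusted limma p under 0.05 was 0. The share of rows called, either way, was below that of all genes. The rows that rose were ND1, ND2, ND5, ND6 and COX1 and 7 tRNA rows, and the median log2 fold change was 0.28 over the mitochondrial rows and 0.02 over all genes. The count rested on few libraries, with 3 rows called without Stage 3+KPT replicate 3, 6 without Stage 3+DMSO replicate 2 and 4 without the expression filter. Of the 5 protein calls, the one that held in 25 of 25 alternatives was ND2.

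ND2, a membrane subunit of complex I, had 753, 697 and 928 RPKM in Stage 3+KPT, against 592, 499.7 and 546 in Stage 3+DMSO. Each KPT value was above each DMSO value, and the log2 fold change was 0.53 (SE 0.13, limma adjusted p = 0.00349). COX1 had 9559, 9228 and 11872 RPKM in Stage 3+KPT, against 8033, 7024 and 7992 in Stage 3+DMSO. The groups were apart, the log2 fold change was 0.41 (SE 0.12, limma adjusted p = 0.0135), and without Stage 3+KPT replicate 3 it was 0.29 and not called. ND6 had 953, 829 and 1281 RPKM in Stage 3+KPT, against 779.6, 664 and 717 in Stage 3+DMSO. The ND6 groups were also apart, with a log2 fold change of 0.48 (SE 0.16, limma adjusted p = 0.0194) that was 0.31 and not called without Stage 3+KPT replicate 3.

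ND5 changed by 0.39 (SE 0.15, limma adjusted p = 0.0443) and ND1 by 0.29 (SE 0.11, limma adjusted p = 0.0383), and these calls held in 15 and 18 of 25 alternatives. Without Stage 3+KPT replicate 3 the log2 fold changes of ND5 and ND1 were 0.26 and 0.21, and neither was called. Without Stage 3+DMSO replicate 2 the values were 0.34 for COX1, 0.42 for ND6, 0.31 for ND5 and 0.23 for ND1, none of them called. All 5 genes that rose were among the 9 that were lower in Stage 3+DMSO than at Stage 1, in comparisons that share the DMSO libraries. In Stage 3+KPT they averaged 10219.7 RPKM for COX1, 1127 for ND1, 792 for ND2, 922 for ND5 and 1021 for ND6, against 14565, 1406, 914, 1642 and 1513 RPKM in the same order at Stage 1. The other 8 protein genes were not called under KPT. Their log2 fold changes ran from -0.11 for ATP6 to 0.45 for ND4L, and for CYTB and COX3, which had fallen at Stage 2, they were 0.15 and 0.10.

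Ratios between genes of 1 library do not depend on its total. The ratio of COX2 to COX1 was 0.144, 0.145 and 0.164 in the 3 Stage 1 libraries, 0.216, 0.215 and 0.204 at Stage 2, 0.270, 0.269 and 0.281 in Stage 3+KPT and 0.393, 0.315 and 0.287 in Stage 3+DMSO. No groups overlapped, so that relative to COX1 there was least COX2 at Stage 1 and most in Stage 3+DMSO, with KPT in between. The ratio of ATP6 to COX1 had the same order, with means of 0.114 ± 0.00319 at Stage 1, 0.146 ± 0.00858 at Stage 2, 0.175 ± 0.00994 in Stage 3+KPT and 0.251 ± 0.0389 in Stage 3+DMSO (SD, n = 3 each). The ratio of CYTB to ND1 was 0.598 ± 0.0105 at Stage 1, 0.475 ± 0.0122 at Stage 2, 0.688 ± 0.0165 in Stage 3+KPT and 0.757 ± 0.0278 in Stage 3+DMSO, lowest at Stage 2. These pairs were chosen after their values were seen and carry no test.

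**Figure D4:**
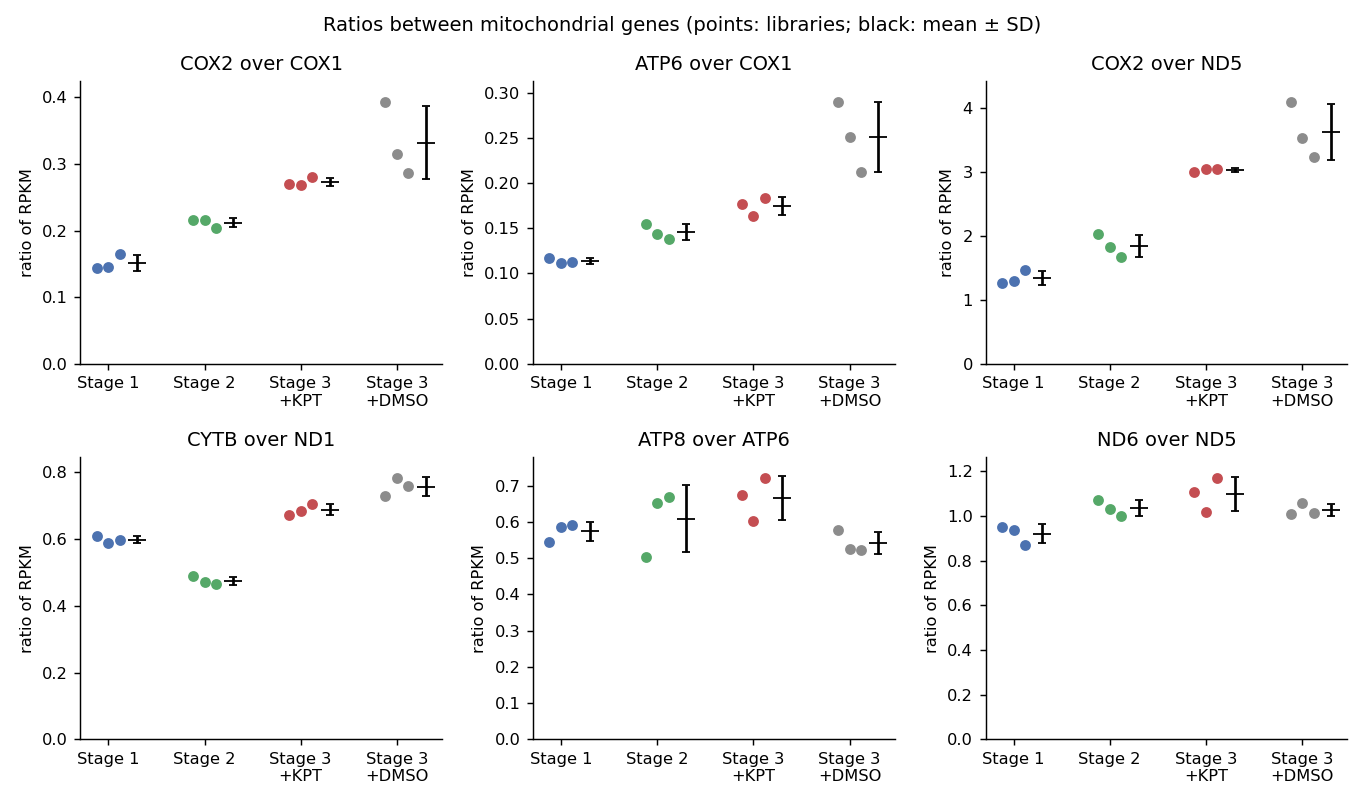
Ratio of RPKM (y axis, from 0) for 6 pairs of mitochondrial protein genes in each library by group (x axis), with mean and SD in black. COX2 over COX1 runs from 0.151 ± 0.0115 at Stage 1 to 0.332 ± 0.0550 in Stage 3+DMSO with no overlap between groups, whereas ND6 over ND5 spans 0.872 to 1.17, lowest at Stage 1.

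ND6 is transcribed from the other strand, and its level relative to the rest was examined in each library. As the library kit enriches RNA with a poly(A) tail, this level is that of captured RNA. The part of capture was not tested. The log2 ratio of ND6 to the median of the other 12 protein genes averaged 0.01 at Stage 1, 0.24 at Stage 2, -0.07 in Stage 3+KPT and -0.35 in Stage 3+DMSO. No 2 groups overlapped in any of the 4 comparisons, each with the smallest exact permutation p that 3 against 3 libraries allow (p = 0.1, adjusted 0.167, n = 3 each). Against the mean of the other genes in place of their median, the difference between Stage 2 and Stage 1 was 0.10 in place of 0.23, and that between Stage 3+DMSO and Stage 1 was -0.51 in place of -0.36. The ratio of ND6 to its neighbour ND5 was 0.952, 0.938 and 0.872 in the 3 Stage 1 libraries, 1.07, 1.03 and 1.00 at Stage 2, 1.11, 1.02 and 1.17 in Stage 3+KPT and 1.01, 1.06 and 1.01 in Stage 3+DMSO, lowest at Stage 1. ND6 and ND5 share 17 bases, and the counting took no account of strand, so RNA of either strand over the ND6 bases counts for ND6.

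The log2 ratio of summed complex I to complex IV RPKM averaged -1.60 at Stage 2 and -1.56 at Stage 1, which overlapped (exact permutation p = 0.7, n = 3 each). The sign of that difference changed without Stage 2 replicate 1. It was -1.73 in Stage 3+DMSO, below both earlier stages without overlap (exact permutation p = 0.1 for each, n = 3 each), and -1.65 in Stage 3+KPT, which overlapped Stage 3+DMSO (exact permutation p = 0.2, n = 3 each), with a difference of 0.08, or 0.05 without Stage 3+KPT replicate 3. The complex IV sum is mostly COX1, and with the mean log2 RPKM of each complex the difference between Stage 3+DMSO and Stage 1 was -0.36 in place of -0.17.

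The rRNA genes build the mitochondrial ribosome. The library kit enriches RNA with a poly(A) tail, so the rRNA and tRNA values describe what was captured by it and not their full amount. The shorter rRNA row (ENSSSCG00000018061, 960 bases, chrM 1246-2205, plus strand) had 72.4, 77.9 and 81.8 RPKM at Stage 1, 74.9, 72.6 and 88.5 at Stage 2, 73.6, 60.0 and 74.4 in Stage 3+KPT and 69.6, 58.3 and 69.1 in Stage 3+DMSO. It was not called in any comparison, but it was called lower in 5 of 25 alternatives in Stage 3+DMSO against Stage 2 (log2 fold changes -0.42 to -0.17 over all 25), with the replicate block at -0.26 (limma adjusted p = 0.0256), and in 5 of 25 against Stage 1 (-0.34 to -0.15), with the block at -0.23 (limma adjusted p = 0.0344). The longer rRNA row (ENSSSCG00000018063, chrM 2274-3844, plus strand) had 92.9, 108 and 110.4 RPKM at Stage 1, 71.9, 89.1 and 104 at Stage 2, 66.2, 63.3 and 84.9 in Stage 3+KPT and 61.3, 57.5 and 63.9 in Stage 3+DMSO. The DMSO values lay below those of both earlier stages. The longer row changed by -0.51 (SE 0.13, limma adjusted p = 0.00734) in Stage 3+DMSO relative to Stage 2 and by -0.76 (SE 0.13, limma adjusted p = 5.07e-04) relative to Stage 1, and by 0.22 (SE 0.13), not called, in Stage 3+KPT relative to Stage 3+DMSO. The rRNA reads were 0.54% to 0.71% of mitochondrial reads, and their log2 ratio to protein-gene reads averaged -7.15 at Stage 2 and -7.44 at Stage 1, without overlap (exact permutation p = 0.1, n = 3 each). The difference was -0.15 in Stage 3+DMSO against Stage 2, 0.13 against Stage 1 and -0.12 in Stage 3+KPT against Stage 3+DMSO, and the groups overlapped in each (exact permutation p = 0.2, n = 3 each).

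The tRNA rows held 1.34% to 1.60% of mitochondrial reads, and a single one accounted for 84.4% to 87.1% of those. It is ENSSSCG00000018076 (chrM 8059-8129, minus strand, 71 bases), which begins 3 bases after the end of COX1. It had 7429.9, 8135 and 7182 RPKM at Stage 1, 5037, 5736 and 6006 at Stage 2, 4982, 5114 and 5844 in Stage 3+KPT and 4541, 4051 and 4480.0 in Stage 3+DMSO, which were 0.492 to 0.594 of COX1 in the same library. Like COX1 it was called in all 4 comparisons, with log2 fold changes of -0.44 at Stage 2 against Stage 1, -0.36 in Stage 3+DMSO against Stage 2 (0.01 and not called under quantile normalization), -0.80 against Stage 1 and 0.28 in Stage 3+KPT against Stage 3+DMSO. The KPT value was 0.21 without Stage 3+KPT replicate 3 and 0.23 without Stage 3+DMSO replicate 2, and neither was called. The tables used here give the tRNA rows no names, so the amino acid of each is not stated. Next in mean level were ENSSSCG00000018093 between ND6 and CYTB (266 RPKM), ENSSSCG00000018064 between the longer rRNA and ND1 (161 RPKM), ENSSSCG00000018074 just before COX1 (119 RPKM) and ENSSSCG00000018079 between COX2 and ATP8 (105 RPKM). The strand given for a tRNA row is that of its annotation. Counting took no account of strand, so RNA of either strand over the bases of a row counts for it. RNA running on from COX1 would count for ENSSSCG00000018076, and its part in that row was not tested.

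**Figure D5:**
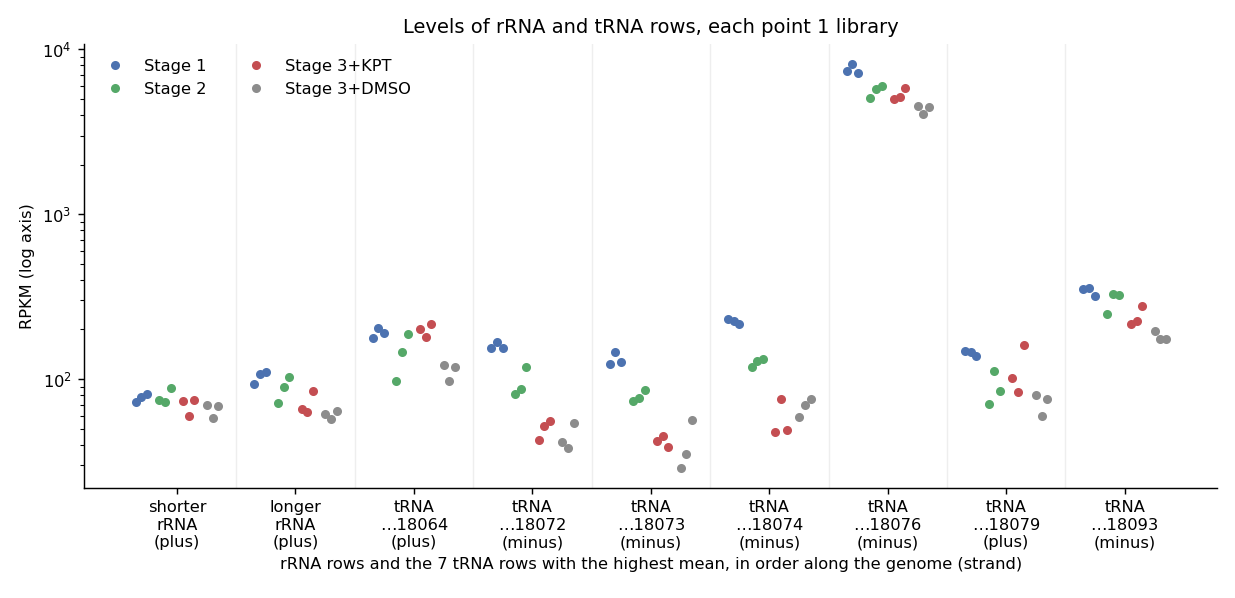
RPKM on a log axis (y) of the 2 rRNA rows and the 7 tRNA rows with the highest mean, in genome order with their strand (x), 1 point per library and 1 colour per group. The tRNA row beside COX1 spans 4051 to 8135 RPKM, far above the others, and the 3 neighbouring minus-strand rows before COX1 separate Stage 1, Stage 2 and the Stage 3 groups.

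The largest falls among the well-covered tRNA rows were in 3 neighbouring minus-strand rows that lie between ND2 and COX1. ENSSSCG00000018074 (chrM 6444-6509) had 232, 224 and 217 RPKM at Stage 1, 118, 128 and 132 at Stage 2, 47.6, 75.8 and 49.0 in Stage 3+KPT and 58.9, 69.2 and 75.9 in Stage 3+DMSO. Stage 1, Stage 2 and Stage 3 were apart, and KPT and DMSO overlapped. In Stage 3+DMSO against Stage 1 it changed by -1.71 (SE 0.15, limma adjusted p = 1.51e-06), ENSSSCG00000018073 (chrM 6379-6444) by -1.74 (SE 0.18) and ENSSSCG00000018072 (chrM 6272-6346) by -1.82 (SE 0.15). All 3 fell at Stage 2 against Stage 1 (log2 fold changes -0.82 to -0.73) and again in Stage 3+DMSO against Stage 2 (-1.07 to -0.89). They were not called in Stage 3+KPT against Stage 3+DMSO (-0.26 to 0.17). Their ratio to COX1 lay between 0.00886 and 0.0167 over the 3 rows and the 3 Stage 1 libraries, against 0.00325 to 0.00986 over the Stage 3 libraries. The difference between their change and that of COX1 was not tested.

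Under KPT, 5 of 12 tested plus-strand tRNA rows rose (41.7%) and 2 of 8 minus-strand rows (25.0%), against 30.5% of all genes. The minus-strand rows were ENSSSCG00000018076, given above, and ENSSSCG00000018093, with 215 to 279 RPKM in Stage 3+KPT and 174 to 197 in Stage 3+DMSO. Among the plus-strand rows, ENSSSCG00000018077 before COX2 had 27.3 to 38.1 RPKM in Stage 3+KPT and 12.4 to 21.5 in Stage 3+DMSO. ENSSSCG00000018064 (chrM 3845-3919, plus strand) averaged 199 ± 18.8 RPKM in Stage 3+KPT and 112 ± 13.1 in Stage 3+DMSO (SD, n = 3 each), and rose by 0.82 (SE 0.18, limma adjusted p = 0.00155) on the log2 scale with no overlap. ENSSSCG00000018079 (chrM 8891-8957, plus strand) had 101, 84.1 and 161 RPKM in Stage 3+KPT, against 79.8, 60.1 and 75.5 in Stage 3+DMSO, and rose by 0.63 (SE 0.21, limma adjusted p = 0.0193). Without Stage 3+DMSO replicate 2 the ENSSSCG00000018079 value was 0.51, and without Stage 3+KPT replicate 3 it was 0.37, neither of them called. The rises under KPT include ENSSSCG00000018066, with 0 to 12 reads in a library and a call in 15 of 24 alternatives, and ENSSSCG00000018070, with 3 to 19 reads and a call in 20 of 25. The falls in Stage 3+DMSO against Stage 1 include ENSSSCG00000018071, with 0 to 20 reads and a call in 14 of 25.

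Most other tRNA rows had too few reads to compare. Of the 22 rows, 14 had fewer than 20 reads in at least 1 library. ENSSSCG00000018060 and ENSSSCG00000018062, the rows before and between the rRNA genes, were not tested and had 7 and 4 reads over all 12 libraries. They had 0 reads in 7 and 10 libraries, in which a count of 0 allows up to 3 reads, or 1.93 to 3.25 RPKM. ENSSSCG00000018066 and ENSSSCG00000018071 passed the filter but had 0 reads in 2 and 1 libraries, and 8 of the 20 tested tRNA rows were not called in any comparison.

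The nuclear genes that transcribe and copy mitochondrial DNA were called in both directions in each comparison. Of 17 tested, 1 rose and 3 fell at Stage 2, 6 rose and 2 fell in Stage 3+DMSO relative to Stage 2, 4 rose and 3 fell relative to Stage 1, and 5 rose and 5 fell in Stage 3+KPT relative to Stage 3+DMSO. The share of all genes called higher was 16.3%, 33.0%, 30.5% and 30.5% in these 4 comparisons, and the share called lower 24.4%, 11.1%, 17.3% and 29.5%, against which this and the following lists are read. After median-ratio rescaling 3 rose in Stage 3+DMSO relative to Stage 2, and without Stage 1 replicate 2 the number that rose relative to Stage 1 was 2. At Stage 2 the number that rose was 3 without Stage 1 replicate 3. POLRMT, the mitochondrial RNA polymerase, and PPARGC1A were not analysed here.

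TFAM, which packages mitochondrial DNA and opens its promoters, had 4.40, 6.37 and 5.83 RPKM at Stage 1, 14.8, 11.8 and 9.02 at Stage 2, 42.4, 24.4 and 41.6 in Stage 3+KPT and 13.7, 10.1 and 10.6 in Stage 3+DMSO. Stage 1 was below all other libraries and KPT above all. TFAM rose at Stage 2 by 0.97 (SE 0.22, limma adjusted p = 0.00377) and in Stage 3+KPT relative to Stage 3+DMSO by 1.55 (SE 0.22, limma adjusted p = 5.33e-05) on the log2 scale, and was -0.04, not called, in Stage 3+DMSO relative to Stage 2. TFAM was higher at Stage 2 than at Stage 1 while 13 mitochondrial rows were lower. It was also 0.93 higher on the log2 scale in Stage 3+DMSO than at Stage 1, while 18 rows were lower. In Stage 3+KPT relative to Stage 3+DMSO, 12 rows were higher along with TFAM. A link between these rows and TFAM was not tested. TFB2M, its partner at the promoter, averaged 12.3 ± 1.91 RPKM in Stage 3+KPT and 5.53 ± 1.45 in Stage 3+DMSO (SD, n = 3 each), a log2 fold change of 1.04 (SE 0.18, limma adjusted p = 2.88e-04). MTERF2 changed by 0.98 between them. The DNA polymerase POLG fell at Stage 2 (-0.41) and in Stage 3+KPT relative to Stage 3+DMSO (-0.40). SSBP1, which coats single-stranded mitochondrial DNA, was not called in any comparison. DNA2, a nuclease of both compartments with 2 IDs in the table, changed by -1.40 at Stage 2, 1.06 in Stage 3+DMSO relative to Stage 2 and -0.86 in Stage 3+KPT relative to Stage 3+DMSO.

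Falls among genes for processing and stabilising mitochondrial RNA had a share near that of all genes at Stage 2 relative to Stage 1. Rises had such a share in Stage 3+DMSO relative to Stage 1. Of 28 tested, 1 rose (3.57%, against 16.3% of all genes) and 7 fell (25.0%, against 24.4%) at Stage 2 relative to Stage 1. The median log2 fold change there was -0.11. In Stage 3+DMSO relative to Stage 2, 16 rose (57.1%, against 33.0%) and 2 fell (median 0.29, against 0.15 over all genes), and relative to Stage 1, 9 rose (32.1%, against 30.5%) and 2 fell. After median-ratio rescaling 8 rose relative to Stage 2 and 4 relative to Stage 1, and without Stage 1 replicate 1 or Stage 3+DMSO replicate 3 the rises relative to Stage 1 numbered 5 and 4. In Stage 3+KPT relative to Stage 3+DMSO, 15 rose (53.6%, against 30.5%) and 3 fell (median 0.27, against 0.02 over all genes).

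LRPPRC, which binds and stabilises mitochondrial mRNAs, averaged 23.6 ± 3.13 RPKM at Stage 2 and 31.9 ± 0.525 at Stage 1 (SD, n = 3 each), a log2 fold change of -0.43 (SE 0.09, limma adjusted p = 0.00212). It changed by 0.37 in Stage 3+DMSO relative to Stage 2 and by 0.45 in Stage 3+KPT relative to Stage 3+DMSO, both called. PUS1, a pseudouridine synthase, and ELAC2, which cuts the 3' ends of tRNAs, fell at Stage 2 (-0.84 and -0.69) and rose in Stage 3+DMSO relative to Stage 2 (0.82 and 0.47). After median-ratio rescaling neither LRPPRC (0.22) nor ELAC2 (0.33) was called at that step. In Stage 3+KPT relative to Stage 3+DMSO the largest rises were those of PRORP, the nuclease of mitochondrial RNase P (1.01), TRMU, which thiolates tRNAs (0.80), and TRMT10C, another RNase P subunit (0.72; it has several IDs in the table).

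The nuclear-encoded partners of the respiratory chain were mostly not called between the stages, and the share that rose was below or near that of all genes. Of 33 tested, 4 rose (12.1%, against 16.3% of all genes) and 1 fell at Stage 2 relative to Stage 1 (median 0.09), 6 rose (18.2%, against 33.0%) and 2 fell in Stage 3+DMSO relative to Stage 2, and 11 rose (33.3%, against 30.5%) and 1 fell relative to Stage 1 (median 0.15, against -0.61 over the 13 mitochondrial protein genes). These counts depended on the scaling and on single libraries. After median-ratio rescaling 12 rose at Stage 2, 1 rose and 9 fell in Stage 3+DMSO relative to Stage 2, and 5 rose and 4 fell relative to Stage 1, while leaving out 1 library at a time gave 0 to 7 rises at Stage 2, with 0 without Stage 1 replicate 2, 1 without Stage 1 replicate 1 or Stage 2 replicate 2, 2 without Stage 2 replicate 3 and 7 without Stage 2 replicate 1. In Stage 3+DMSO relative to Stage 2, 3 rose without Stage 2 replicate 2 or Stage 3+DMSO replicate 3, and relative to Stage 1, 7 rose without Stage 1 replicate 1 or 2 or Stage 3+DMSO replicate 2. UQCRQ, a small subunit of complex III, averaged 129.9 ± 0.826 RPKM in Stage 3+DMSO and 85.4 ± 5.59 at Stage 1 (SD, n = 3 each), a log2 fold change of 0.60 (SE 0.06, limma adjusted p = 5.64e-06). In Stage 3+KPT relative to Stage 3+DMSO, 18 of 33 rose (54.5%, against 30.5%) and 2 fell (median 0.21), led by NDUFS4 of complex I (0.70), COX6C (0.62) and COX7A2 (0.49) of complex IV.

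Markers of mitochondrial mass and import fell at Stage 2 in 8 of 12 tested (66.7%, against 24.4% of all genes) and rose in 0, and without Stage 1 replicate 1 they fell in 5. They rose in 7 and fell in 2 in Stage 3+DMSO relative to Stage 2, 4 rose and 4 fell relative to Stage 1, and 2 rose and 3 fell in Stage 3+KPT relative to Stage 3+DMSO. Relative to Stage 1, 2 rose without Stage 1 replicate 3 or Stage 3+DMSO replicate 3, and without Stage 3+DMSO replicate 1, 1 rose and 5 fell under KPT. CS, the citrate synthase of the matrix, averaged 92.1 ± 4.32 RPKM at Stage 1, 78.0 ± 4.35 at Stage 2, 57.1 ± 3.94 in Stage 3+KPT and 71.6 ± 2.36 in Stage 3+DMSO (SD, n = 3 each). CS fell at Stage 2 relative to Stage 1 (-0.24) and again in Stage 3+KPT relative to Stage 3+DMSO (-0.32), and the Stage 2 call ended without Stage 1 replicate 3 or Stage 2 replicate 2 (-0.20 and -0.19), while TOMM20, an import receptor of the outer membrane, changed by -0.30 at Stage 2 and by 0.72 in Stage 3+DMSO relative to Stage 2. HSPA9, the matrix chaperone, averaged 369 ± 9.01 RPKM in Stage 3+DMSO and 128 ± 2.29 at Stage 2 (log2 fold change 1.52).

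Of 9 tested mitophagy genes, whose products mark mitochondria for degradation, 7 rose (77.8%, against 16.3% of all genes) and 0 fell at Stage 2. PINK1, the kinase that flags depolarised mitochondria, averaged 13.7 ± 1.27 RPKM at Stage 1, 24.8 ± 0.773 at Stage 2, 22.6 ± 0.744 in Stage 3+KPT and 38.5 ± 2.63 in Stage 3+DMSO. It rose at Stage 2 relative to Stage 1 (0.82) and in Stage 3+DMSO relative to Stage 2 (0.61), and fell in Stage 3+KPT relative to Stage 3+DMSO (-0.74). BNIP3, a hypoxia-induced mitophagy receptor, changed by -1.47 in Stage 3+DMSO relative to Stage 2. Over the list, 2 rose and 5 fell at that step, 3 rose and 1 fell in Stage 3+DMSO relative to Stage 1, and 5 rose and 1 fell in Stage 3+KPT relative to Stage 3+DMSO.

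Of 4 tested genes that supply mitochondria with nucleotides, 3 rose and 0 fell in Stage 3+KPT relative to Stage 3+DMSO. RRM2B, the p53-inducible small subunit of ribonucleotide reductase, had 21.6, 18.0 and 21.6 RPKM in Stage 3+KPT, against 7.06, 4.91 and 5.26 in Stage 3+DMSO. The groups were far apart, with a log2 fold change of 1.68 (SE 0.12, limma adjusted p = 1.48e-07). The pyrimidine nucleotide carriers SLC25A33 and SLC25A36 changed by 1.23 and 0.59. At Stage 2 relative to Stage 1, 0 rose and 1 fell, in Stage 3+DMSO relative to Stage 2, 3 rose and 0 fell, and relative to Stage 1, 2 rose and 0 fell. Of the 4 tested biogenesis regulators, 0 rose and 2 fell at Stage 2, 3 rose and 0 fell in Stage 3+DMSO relative to Stage 2, 2 rose and 1 fell relative to Stage 1, and 1 rose and 2 fell in Stage 3+KPT relative to Stage 3+DMSO. PPRC1, a PGC-1-related coactivator, changed by -0.55 at Stage 2 and -0.76 in Stage 3+KPT, and NRF1, a regulator of nuclear respiratory genes, by 0.49 in Stage 3+DMSO relative to Stage 2. That NRF1 call ended without Stage 2 replicate 3 (0.41) or Stage 3+DMSO replicate 2 (0.39), when 1 and 0 regulators rose, and after median-ratio rescaling (0.35), when 0 rose.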

How the data were processed

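RNA was sequenced in 12 libraries, made from 500 ng of DNA-free total RNA with a stranded mRNA kit per the labels' protocols. The submitters' processing notes name TopHat2 2.1.0 for alignment, while the build, annotation and counter were not given in the sources used here. What the authors deposited were RPKM values for each gene and each exon. Multiplied by exon length and library total they gave whole reads within 0.0001 for 100.0% of values, and these recovered reads gave the shares and floors. Opposite-strand exons over the same bases had nearly equal values (13 pairs, largest absolute log2 ratio 0.0775), so counting ignored strand. Genes with an RPKM of at least 1 in at least 3 libraries (13046) were tested with limma 3.58.1 (R 4.3.3) on log2(RPKM + 1), with all 12 libraries, 1 coefficient per group, an expression trend and Benjamini-Hochberg adjustment over all genes tested (adjusted p under 0.05). This understates the change of low genes. Shares and ratios were compared by exact two-sided permutation tests (scipy 1.17.1, Python 3.11.15), and their intervals and floors cover counting error only. The code was tested on simulated data. Alternatives were other pseudocounts, filters, scalings and normalizations, library weights, limma-voom on recovered reads, a replicate block, and fits with 1 library removed. All mitochondrial protein and rRNA rows could be named, with the tested tRNA rows, and of each nuclear list up to 3 called genes per direction and comparison by size of change plus a fixed panel. The members and lists were chosen with earlier results of these data known.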

Additional observations from a re-analysis of the deposited data

How the results depend on the processing

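For the 35 tested mitochondrial rows, 3310 recomputed values kept their side of the threshold, 92 gained a call, 91 lost one and 3 reversed. A change of sign counted as a reversal only where the main or the recomputed value was called. Values called in neither fit could change sign and still be counted as kept. The reversals were ENSSSCG00000018066 at Stage 2 against Stage 1, at 0.74 without replicate 1 of every group (limma adjusted p = 0.0492), an alternative chosen after seeing the data, and, under quantile normalization of Stage 3+DMSO against Stage 2, ENSSSCG00000018076 at 0.0069 (limma adjusted p = 0.963) and COX3 at 0.26 (limma adjusted p = 0.0281). The same rule was used for 26 named nuclear genes, recomputed after seeing the data. Of their values 2476 kept their side of the threshold, 42 gained a call, 78 lost one and 0 reversed. Without the expression filter 7 mitochondrial rows were called at Stage 2 against Stage 1 and 4 in Stage 3+KPT against Stage 3+DMSO. In Stage 3+DMSO against Stage 2 the number called was 17 after median-ratio rescaling, 20 with library quality weights, 17 with limma-voom and 17 without replicate 1 of every group. Leaving out 1 library at a time gave 10 to 15 calls at Stage 2 against Stage 1, 9 to 16 in Stage 3+DMSO against Stage 2, 16 to 19 against Stage 1 and 3 to 13 in Stage 3+KPT against Stage 3+DMSO. No pairing of the samples by replicate number was seen (correlations of deviations -0.13 to 0.07, 0 of 18 over 0.1). With so few replicates this cannot show that they were unpaired. With the replicate block 13, 13, 19 and 12 rows were called in these 4 comparisons. With the library total as denominator the difference in mitochondrial share was -1.08 points at Stage 2 against Stage 1, -0.56 in Stage 3+DMSO against Stage 2, -1.63 against Stage 1 and 0.581 in Stage 3+KPT against Stage 3+DMSO, and as a share of summed RPKM it was -1.15 at Stage 2 against Stage 1, -1.59 in Stage 3+DMSO against Stage 1 and 0.751 in Stage 3+KPT against Stage 3+DMSO. From summed reads the log2 tRNA to protein ratio differed by -0.112 in Stage 3+DMSO against Stage 2 and by -0.118 against Stage 1. The groups did not overlap in either (exact permutation p = 0.1, adjusted 0.167, n = 3 each). It differed by -0.006 at Stage 2 against Stage 1 and by 0.013 in Stage 3+KPT against Stage 3+DMSO. The groups overlapped in both (exact permutation p = 0.9, n = 3 each). From summed RPKM this ratio differed by -0.20 in Stage 3+DMSO against Stage 2 and -0.25 against Stage 1. ND6 against the mean of the other genes differed by 0.10 at Stage 2 against Stage 1 and by -0.51 in Stage 3+DMSO against Stage 1. With mean log2 RPKM per complex, complex I over complex IV differed by -0.14, -0.22, -0.36 and 0.14 in the 4 comparisons. The cause of these changes was not tested. Depth limited the tRNA rows, 14 of 22 of which had under 20 reads in a library.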
